A study of Homo sapiens with 12 samples.

Results

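The short arm of chromosome 17 (17p) was followed gene by gene in parental, CD44s-OE and CD44v6-OE colon cancer cells. The genes were selected by position and by level: their first exon starts on the short-arm side of the chromosome 17 centromere in hg19, and their mean over the 12 libraries is at least 1 CPM, a gene's count scaled to a common library total. CLDN7 and genes whose symbols mark ribosomal proteins or LINC transcripts were left out. This gave 239 of the 62426 genes in the count table, 231 of them with a symbol, out of 935 genes annotated on the arm at any level. The arm itself was chosen because its median fold change was low in SW480 CD44s-OE cells. Every value of that comparison, adjusted p included, is therefore given as a description and not as a test of the arm. The first gene of the arm was DOC2B and the last MAP2K3 (155 CPM) and KCNJ12 (21.2 CPM), while the next expressed genes, WSB1 (28.5 CPM) and KSR1, lie on the long arm, 17q. By level, WSCD1 and RASD1 were just inside at 1.04 CPM each, and DRC3 (0.976 CPM) and INCA1 (0.967 CPM) just outside.

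Chromosome arm 17p is a stretch often lost in colon cancer. The genes of the arm share an address rather than a pathway: they encode the largest RNA polymerase II subunit (POLR2A), a core protein of the spliceosome (PRPF8), translation factors (EIF5A, EIF4A1), a mitotic kinase (AURKB), kinases of stress signaling (MAP2K3, MAP2K4), the corepressor NCOR1 and many enzymes. When a whole arm is gained or lost in a cell population, its genes tend to shift in RNA level together, whatever they do. Regulation by a pathway often moves genes that are scattered over the genome. RNA counts do not measure gene copies, and neither the copy number of these cells nor regulation of the arm was tested here.

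HCT116 and SW480 are established human colon cancer cell lines. In each line, 2 libraries came from parental cells, 2 from cells stably transfected to overexpress the standard isoform of the hyaluronan receptor CD44 (CD44s-OE) and 2 from cells that overexpress the isoform with variant exon 6 (CD44v6-OE). The overexpressing cells were selected with Geneticin and, by the headers of the count table, sequenced as pools of transfected cells, while the controls are labelled as parental cells, with no mention of a vector control. The isoform, the vector, the selection and the history of a pool cannot be told apart. The libraries are labelled as replicates without a statement that they are separate transfections, so the p-values measure the spread between these libraries. Since whole cultures were sequenced, fewer cells with a transcript and less of it per cell cannot be told apart.

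The 12 libraries held 43102156 to 52811889 counts over 23601 to 26072 genes. Total CD44 was at 509 to 552 CPM in all HCT116 libraries and at 135 to 203 CPM in those of SW480, with the CD44v6-OE libraries at 135 and 147 CPM in SW480, below the parental 165 and 172 CPM. The SW480 CD44s-OE libraries, at 187 and 203 CPM, were above both parental ones. The gene-level count adds all isoforms and does not show the overexpression of CD44v6 or, in HCT116, that of CD44s. The study assayed these isoforms in the overexpressing cells by RT-qPCR and western blot. The groups are named as the labels name them. Markers of colon epithelial lines summed to 4580 to 16300 CPM, against 0.378 to 5.33 CPM for 5 leukocyte markers, 0.646 to 2.14 CPM for endothelial markers and, for fibroblast markers, 13.3 to 58.2 CPM in HCT116 and 1.91 to 4.56 CPM in SW480. Single markers moved with CD44s-OE, among them EPCAM in SW480, from 222 and 246 CPM in parental to 73.9 and 69.0 CPM, and KRT8, from 10100 and 9860 CPM to 4650 and 5420 CPM. VIL1 of the same list went the other way in SW480, from 5.41 and 12.8 CPM in parental to 13.9 and 18.8 CPM. In HCT116, the collagen gene COL3A1 of the fibroblast list was at 0.114 CPM in both parental libraries and at 7.39 and 20.6 CPM with CD44s-OE, while the fibroblast marker DCN was at 0 to 0.0189 CPM in the line. The part of these markers in the values of the arm was not tested. Replicates differed by more than counting noise in every group (chi-square per degree of freedom of 10.6 to 107.0), and none was a copy of another. The 17p genes took 1.91% and 1.94% of the counts in parental HCT116, 1.68% and 1.63% with CD44s-OE, then 1.83% and 1.81% with CD44v6-OE. In SW480 they took 2.26% and 2.14% in the parental libraries, 1.79% and 1.65% with CD44s-OE, then 2.04% and 2.07% with CD44v6-OE.

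For 4 genes that passed both thresholds in at least 1 comparison below, the 250 bases before the transcription start are shown, so that their base composition can be set beside that of the arm. They did not move alike: MIR22HG and MYO15A rose and DNAH2 fell in HCT116 CD44s-OE, and ALOXE3 was low in SW480 CD44s-OE. They are RefSeq sequences on GRCh38.p14, written 5′ to 3′ on the gene's strand, with each CpG in capitals. The host gene of the microRNA miR-22, MIR22HG, starts after chr17:1716211-1716460 (minus strand), the axonemal dynein gene DNAH2 after chr17:7717494-7717743 (plus strand), the lipoxygenase gene ALOXE3 after chr17:8118917-8119166 (minus strand, the first of its listed starts) and the unconventional myosin gene MYO15A after chr17:18108506-18108755 (plus strand).
MIR22HG: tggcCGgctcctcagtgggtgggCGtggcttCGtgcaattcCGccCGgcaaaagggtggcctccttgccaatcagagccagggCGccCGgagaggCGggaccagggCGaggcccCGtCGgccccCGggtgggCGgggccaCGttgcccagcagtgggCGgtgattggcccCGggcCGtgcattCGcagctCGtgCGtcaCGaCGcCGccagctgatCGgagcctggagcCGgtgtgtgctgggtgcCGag
DNAH2: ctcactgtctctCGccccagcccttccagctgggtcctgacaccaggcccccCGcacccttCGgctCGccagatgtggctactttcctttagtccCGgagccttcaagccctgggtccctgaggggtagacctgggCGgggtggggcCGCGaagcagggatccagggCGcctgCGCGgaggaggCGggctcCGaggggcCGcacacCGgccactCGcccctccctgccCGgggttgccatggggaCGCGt
ALOXE3: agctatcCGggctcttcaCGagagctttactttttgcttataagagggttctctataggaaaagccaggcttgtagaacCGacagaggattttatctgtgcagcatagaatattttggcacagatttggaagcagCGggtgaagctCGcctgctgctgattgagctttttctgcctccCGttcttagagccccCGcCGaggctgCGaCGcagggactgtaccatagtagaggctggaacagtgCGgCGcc
MYO15A: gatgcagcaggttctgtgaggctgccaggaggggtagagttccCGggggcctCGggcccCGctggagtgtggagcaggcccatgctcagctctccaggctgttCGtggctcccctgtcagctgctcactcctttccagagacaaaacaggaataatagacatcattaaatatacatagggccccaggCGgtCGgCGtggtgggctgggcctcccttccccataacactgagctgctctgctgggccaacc
They held 26, 19, 12 and 7 CpG and 72.8%, 71.6%, 52.0% and 60.8% G and C, in that order. The 6-base motif CACCTG, or CAGGTG on the other strand, to which the EMT factor ZEB1 binds, was in none of the 4. It was found in 34 of the 176 promoters of 17p genes that had an entry (19.3%), against 16.3% of the 10503 promoters of all genes at 1 CPM or more. The median promoter of the arm held 21.5 CpG and 67.0% G and C, against 21.0 CpG and 65.6% for those expressed genes.

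In SW480, most genes of the arm had a lower level with CD44s-OE than in the parental line. Among the 237 genes that passed edgeR's filter on low counts, the median log2 fold change was -0.41, a level 0.75 times that of parental cells, and 207 genes were below 0. The quartiles were -0.59 and -0.18, against -0.22 and 0.21 over all 13675 tested genes at 1 CPM or more, so the genes of the arm spread about as widely as other genes around a lower centre. The long arm of the same chromosome had a median of 0.081 over 621 genes, of which 40.1% were below 0.

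By position, the low values covered the arm from end to end. All 11 windows of 2 Mb had a median below 0, and the 8 windows with 10 genes or more ranged from -0.51, at 2 to 4 Mb, to -0.31, at 18 to 20 Mb. The running median over 15 genes was below 0 at all 223 positions, lowest around ATP2A3 (-0.58) and highest around FAM83G (-0.15). The longest unbroken run of genes below 0 held 34 genes, from RPH3AL to TSR1. Beyond the centromere, only 2 of 14 windows of 4 Mb along 17q had a median below 0, and the range there was -0.11 to 0.26.

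**Figure D1:**
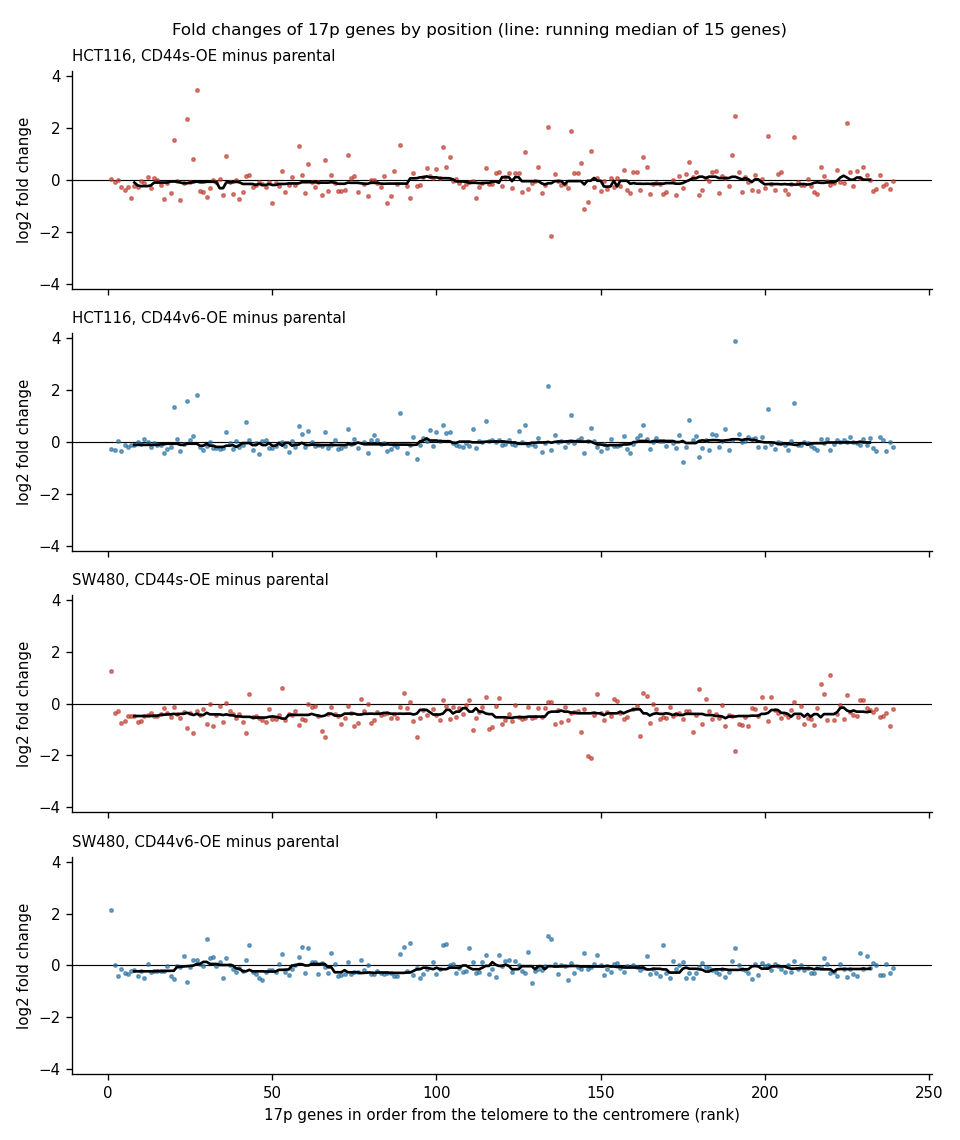
Log2 fold change of each 17p gene (points) against its rank along the arm from telomere to centromere, in HCT116 and SW480, CD44s-OE and CD44v6-OE minus parental, with the running median of 15 genes (line). The line stays below 0 along the whole arm in SW480 CD44s-OE, between -0.58 and -0.15, while it runs from -0.31 to 0.17 in HCT116 CD44s-OE (below 0 at 171 of 222 positions), from -0.20 to 0.13 in HCT116 CD44v6-OE (160 of 222) and from -0.30 to 0.14 in SW480 CD44v6-OE (202 of 223).

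The level of the arm was then taken in each library, as the median log2 difference of its genes from the mean of the parental libraries. In SW480, the parental libraries were at 0.065 and -0.065, those of CD44s-OE at -0.35 and -0.43, and those of CD44v6-OE at -0.18 and -0.068. Both CD44s-OE libraries were below all others, and the higher CD44v6-OE library was next to the lower parental one. Group means were -0.39 ± 0.061 (SD, n = 2) for CD44s-OE, against -0.12 ± 0.079 (SD, n = 2) in CD44v6-OE, with an SD of 0.092 between the parental libraries (n = 2). On 17q the same groups were at 0.087 ± 0.026 and 0.15 ± 0.044 (SD, n = 2 each). In HCT116, parental libraries were at -0.0029 and 0.0029, CD44s-OE at -0.045 and -0.14, and CD44v6-OE at -0.045 and -0.049. An exact two-sided permutation test of CD44v6-OE against parental SW480, or of either group against parental HCT116, gave p = 0.33, the smallest value that 2 libraries against 2 allow.

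To rank the arms, each was taken with all its tested genes at 1 CPM or more, and on 17p those left out by symbol were added back (242 genes in SW480). The medians of 17p in the ranking can therefore differ slightly from those of the selected genes. Among the 41 arms with at least 50 tested genes in SW480, 17p had the lowest median in CD44s-OE minus parental cells. The next was 13q at -0.35, followed by 4p at -0.22 and 18p at -0.21, and the highest was 6q at 0.17. The level of 13q in the libraries was -0.25 and -0.46 with CD44s-OE, against -0.20 and -0.072 with CD44v6-OE, an order of groups like that of 17p. In HCT116 CD44s-OE, 13q was at -0.057 and 0.14. The arm also ranked low in other comparisons, where its medians were smaller in size. It was 2 of 41 from the lowest in SW480 CD44v6-OE minus parental (-0.15, with 18p at -0.16) and 1 of 41 in SW480 CD44s-OE minus CD44v6-OE (-0.28). Among 40 arms in HCT116 it was 2 from the lowest in CD44s-OE minus parental (-0.086, with 18q at -0.11), 3 in CD44s-OE minus CD44v6-OE (-0.041) and 15 in CD44v6-OE minus parental (-0.039).

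The low values in SW480 CD44s-OE were found on both strands and at all lengths and levels. The median was -0.40 for 111 genes on the plus strand and -0.42 for 126 on the minus strand. By exonic length it was -0.42, -0.40 and -0.43 from the short to the long tercile. Across terciles of mean level it was -0.28 for the low, -0.42 for the middle and -0.46 for the high one, where all tested genes had medians of 0.079, -0.0054 and -0.055. Genes at high level were thus lower on the arm and, to a lesser degree, elsewhere.

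Both CD44s-OE libraries were below both parental libraries for 157 of the 237 genes (66.2%), where 20.5% of all 17539 tested genes showed this, and above both for 6 genes (2.53%). Here and below, shares of all genes that passed or did not overlap are over all tested genes of the fit. They include genes below 1 CPM, unlike the arm and the medians over all genes. The part of expression level in these shares was not tested. At an adjusted p under 0.1, 35 genes of the arm passed (14.8%) and all were lower, where 4.72% of all genes passed in either direction and 2.22% were lower. With an absolute log2 fold change over 1.5 as well, 2 genes passed, ALOXE3 and KRT16P6, where the share over all genes was 2.03%. These counts belong to the comparison by which the arm was chosen and are given as its description. They also depend on single libraries: 101 genes passed the adjusted p without parental replicate 2, 13 without CD44s-OE replicate 1, 0 without CD44s-OE replicate 2, 15 without CD44v6-OE replicate 1 and 14 without CD44v6-OE replicate 2. The arm median stayed between -0.48 and -0.35 when any 1 library was left out.

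Genes of quite different roles were low together in SW480 CD44s-OE. All 23 tested genes of transcription and chromatin were below 0 (median -0.45), as were all 19 of RNA processing and translation (median -0.53), all 20 kinases and signaling adaptors (-0.40), all 10 of mitosis and the centrosome (-0.50) and all 10 of the proteasome, ubiquitin and protein quality (-0.39). In the cytoskeleton and membrane traffic list 18 of 20 were below 0 (-0.46), in mitochondria and metabolism 20 of 26 (-0.40), in DNA repair and replication 6 of 7 (-0.45) and among inflammation, secreted and surface proteins 21 of 25 (-0.37). Those at an adjusted p under 0.1 numbered 3, 4, 2, 3, 2, 5, 2, 1 and 4, in the order of these lists, and all were lower. Over the arm, 87.3% of genes were below 0 and 14.8% passed as lower, where 2.22% of all genes passed as lower. The arm was chosen on this comparison and the lists were written with results known, so these counts are a description.

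Single genes show the size of these differences. POLR2A was at 365.5 and 328.1 CPM in parental SW480, 267.2 and 167.8 CPM with CD44s-OE, then 265.6 and 320.4 CPM with CD44v6-OE (-0.67 ± 0.21, SE, for CD44s-OE minus parental on the log2 scale). NCOR1, a corepressor of nuclear receptors, was at 173.0 and 188.9 CPM in parental, 137.1 and 101.3 CPM with CD44s-OE, then 160.4 and 160.9 CPM with CD44v6-OE (-0.60 ± 0.17, SE). For both genes the CD44s-OE libraries were below both parental ones, and for NCOR1 they were also below both CD44v6-OE libraries. Neither gene passed the adjusted p.

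Kinase and cytoskeletal genes followed the same order. MAP2K3, a kinase upstream of p38, was at 250.3 and 158.7 CPM in parental SW480, at 110.2 and 113.8 CPM with CD44s-OE, and 167.8 and 163.1 CPM with CD44v6-OE (-0.87 ± 0.20, SE, for CD44s-OE minus parental). TNK1, a non-receptor tyrosine kinase, was at 35.7 and 35.7 CPM, 19.45 and 19.03 CPM, and 32.4 and 32.0 CPM in these groups (-0.89 ± 0.16, SE). FLII, an actin-remodeling protein of the gelsolin family, had 588.6 and 475.7 CPM in parental, 324.6 and 288.0 CPM with CD44s-OE, then 452.1 and 483.5 CPM with CD44v6-OE (-0.80 ± 0.17, SE). In each of these genes, CD44s-OE was the lowest group without overlap. MAP2K4 (-0.59), KIF1C, a kinesin motor (-0.74), PAFAH1B1 and NDEL1, partners of the dynein motor (-0.57 and -0.59), VPS53 of the GARP complex (-0.66) and PFN1, which binds actin monomers (-0.55), had fold changes of the same sign. Of these genes, MAP2K4 and PFN1 did not pass the adjusted p.

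Among RNA and mitochondrial genes, TSR1, a factor of small ribosomal subunit maturation, was at 191.4 and 173.9 CPM in parental SW480, 121.1 and 102.9 CPM with CD44s-OE, then 127.3 and 134.0 CPM with CD44v6-OE (-0.71 ± 0.15, SE). SCO1, which helps to assemble cytochrome c oxidase, was at 61.3 and 69.2 CPM, 42.0 and 35.4 CPM, and 50.1 and 53.2 CPM (-0.75 ± 0.16, SE). Both genes were lowest in CD44s-OE with CD44v6-OE between. MRM3 and ELAC2, which act on mitochondrial ribosomal RNA and transfer RNA, were at log2 fold changes of -0.70 and -0.54, the nucleolar protein gene MYBBP1A at -0.65, TOP3A, a topoisomerase, at -0.59, ZZEF1 at -0.64, PHF23 at -0.53 and NXN, a thioredoxin-like enzyme, at -0.68. RNF167, a ubiquitin ligase, was at -0.80, EMC6 of the ER membrane complex at -0.63, and CENPV and KIAA0753, of the centromere and centrosome, at -0.56 and -0.69.

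Low values were also found among genes at low or moderate level. The lowest was that of HES7, a transcriptional repressor of the somite clock named here after its values were seen, at 37.9 and 11.3 CPM in parental SW480, 7.18 and 4.25 CPM with CD44s-OE, then 25.01 and 22.7 CPM with CD44v6-OE (-2.11 ± 0.59, SE). It did not pass the adjusted p, and its parental libraries were far apart. ALOXE3, which encodes a lipoxygenase of the epidermis, was at 15.8 and 7.78 CPM in parental SW480, 3.31 and 2.44 CPM with CD44s-OE, then 9.89 and 11.7 CPM with CD44v6-OE (-2.04 ± 0.33, SE, for CD44s-OE minus parental). Its CD44s-OE libraries were the lowest of the line, though the parental libraries were themselves far apart. KRT16P6, a keratin 16 pseudogene whose reads can also fit other keratin 16 copies, was at 1.17 and 2.31 CPM in parental, 0.502 and 0.472 CPM with CD44s-OE, then 2.35 and 3.24 CPM with CD44v6-OE (-1.84 ± 0.44, SE). CXCL16, a membrane-bound chemokine, was at 37 and 30.8 CPM in parental, 17.8 and 14.7 CPM with CD44s-OE, then 32.4 and 40.1 CPM with CD44v6-OE (-1.065 ± 0.19, SE). The deubiquitinase USP43 (-1.26), TRIM16 (-1.08), which has a near-identical neighbour in TRIM16L, and the cold-shock RNA-binding protein gene YBX2 (-1.003) were also low without overlap with parental cells. Other genes, such as TRPV3 and SERPINF2 (-1.14 each), had values in the same range.

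A minority of genes lay above 0 or near it. SW480 CD44s-OE had 30 of 237 genes above 0, among them the aldehyde dehydrogenase ALDH3A2 (0.14), with 44.9 and 42.2 CPM against 34.0 and 44.9 CPM in parental cells. The polarity gene LLGL1 was at -0.079, CHD3, a chromatin remodeler, at -0.13, SHMT1, the cytosolic serine hydroxymethyltransferase, at -0.16, the folliculin gene FLCN at -0.19, the deubiquitinase USP22 at -0.20 and RPA1, which coats single-stranded DNA, at -0.20, none of them past the adjusted p. YWHAE (-0.36), C1QBP (-0.36), AURKB (-0.31), SREBF1 (-0.36) and COX10 (-0.40) lay between 0 and the arm median of -0.41. MYH10 (-0.50), EIF5A (-0.54), EIF4A1 (-0.57), PRPF8 (-0.57) and ACADVL (-0.58) were not near 0 but below that median. None of these genes passed the adjusted p. DOC2B, at the telomeric end, was the gene farthest above 0 (1.27 ± 0.47, SE), at 0.858 and 0.885 CPM against 0.356 and 0.364 CPM in parental cells.

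CD44v6-OE cells of SW480 were compared with the same parental libraries, which the comparison above also used. Few genes of the arm passed the test: 1 of 237 passed the adjusted p, where 0.57% of all genes passed, and 0 passed both thresholds, where 0.416% did. An unadjusted p under 0.05 in edgeR was reached by 27 genes, 10 higher and 17 lower, and DESeq2 called 1 gene past both thresholds. The median was -0.14, with quartiles of -0.28 and 0.052, and with 157 genes and all 11 windows of 2 Mb below 0, against medians of -0.020 over all genes and 0.13 on 17q. Without parental replicate 1 the median was -0.033, and the mean in place of the median was -0.062. Both CD44v6-OE libraries were below both parental libraries for 89 genes (37.6%), where 18.5% of all genes showed this.

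The gene that passed was EFNB3, which encodes ephrin B3, a ligand of EPH receptors. It was at 10.9 and 10.9 CPM in parental SW480, at 22.8 and 24.9 CPM with CD44v6-OE and at 13.9 and 8.95 CPM with CD44s-OE. Both CD44v6-OE libraries were above the other 4, and the fitted log2 change was 1.12 ± 0.23 (SE, adjusted p = 0.0885, edgeR's quasi-likelihood test). It no longer passed without either CD44s-OE or either CD44v6-OE library. Without parental replicate 1, 11 genes passed, and without parental replicate 2, 9.

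Against CD44v6-OE, the arm was also lower in SW480 CD44s-OE, at a median of -0.28 with 204 of 237 genes below 0. In this comparison the long arm was lower too, by less: 17q had a median of -0.081, with 60.5% of its genes below 0. The median over all genes at 1 CPM or more was 0.010. No overlap between the libraries, with CD44s-OE lower, was seen for 160 genes of 17p (67.5%), where the share over all genes was 23.9%. At an adjusted p under 0.1, 12 genes passed (5.06%), all lower, where 2.12% of all genes passed in either direction and 1.55% were lower. With the minimum fold, 3 passed, KRT16P6 (-2.52), ALOXE3 (-1.91) and the Nogo receptor relative RTN4RL1 (-1.80), where 1.02% of all genes passed. YBX2 (-1.13), SERPINF2 (-1.33), CXCL16 (-1.16) and ARHGAP44, a GTPase-activating protein (-1.31), were among those past the adjusted p alone. These values share the CD44s-OE libraries that the choice of the arm used. Counts past the adjusted p were 3 and 0 without CD44s-OE replicate 1 or 2, 5 and 2 without CD44v6-OE replicate 1 or 2, and 41 and 43 without parental replicate 1 or 2. Past both thresholds, 0 genes were left without either CD44s-OE library.

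In HCT116, which took no part in the choice of the arm, the shift was smaller. CD44s-OE minus parental had a median log2 fold change of -0.084 over 236 genes, 142 of them below 0, with quartiles of -0.29 and 0.20. All 13389 tested genes at 1 CPM or more had a median of 0.0014 and quartiles of -0.24 and 0.32, and 17q had a median of -0.018. The sign of the centre depended on its definition, since the mean was 0.021, and the median was -0.15 without CD44s-OE replicate 1 and -0.14 among genes at 10 CPM or more. For CD44v6-OE minus parental the median was -0.038 and the mean 0.033, and among genes at 10 CPM or more the median was -0.098. Of 11 windows of 2 Mb, 10 had a median below 0 with CD44s-OE and 7 with CD44v6-OE. Those with 10 genes or more ranged from -0.15 to 0.13 with CD44s-OE and from -0.13 to 0.058 with CD44v6-OE, and along 17q windows of 4 Mb ranged from -0.20 to 0.13 and from -0.16 to 0.092. The high tercile by mean level had a median of -0.18 on the arm in CD44s-OE and of -0.12 over all genes.

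Individual genes of the arm did change in HCT116 CD44s-OE. Past an adjusted p of 0.1 in edgeR's quasi-likelihood test were 41 of 236 genes (17.4%), where 14.2% of all genes passed. For these shares, all genes are the 17335 tested ones, also those below 1 CPM, which the selection of the arm left out. By direction, 13 genes were higher (5.51%), where 8.45% of all genes were, and 28 lower (11.9%), where 5.71% of all genes were. With an absolute log2 fold change over 1.5, 7 passed (2.97%), 6 higher and 1 lower, where 3.09% of all genes passed, a share near that of the arm. Both CD44s-OE libraries were below both parental libraries for 86 genes (36.4%), where 24.0% of all genes showed this, and above both for 48 genes (20.3%), where 27.5% did. The counts moved with single libraries: past the adjusted p were 81 and 70 genes without CD44s-OE replicate 1 or 2, 17 without either CD44v6-OE library, 17 without parental replicate 1 and 5 without parental replicate 2. Past both thresholds, 3 genes were counted without parental replicate 2.

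Close to each other near the telomere, a host gene of a microRNA and a pair of serpin genes rose. MIR22HG (ENSG00000186594, 1614787 to 1620468 of hg19) was at 1.10 and 1.41 CPM in parental HCT116, 5.37 and 7.41 CPM with CD44s-OE, then 3.36 and 4.17 CPM with CD44v6-OE. The CD44s-OE pool exceeded parental cells by 2.35 ± 0.29 on the log2 scale (SE, adjusted p = 0.00368). SERPINF1, which encodes pigment epithelium-derived factor and lies from 1665323 to 1680859, was at 0.418 and 0.469 CPM in parental, 3.20 and 6.71 CPM with CD44s-OE, then 1.602 and 1.515 CPM with CD44v6-OE (3.48 ± 0.42, SE, adjusted p = 0.00328). All overexpressing libraries were above both parental ones for these genes. SERPINF2, for the plasmin inhibitor alpha2-antiplasmin, lies between them and was at 4.96 and 6.65 CPM, 7.91 and 12.7 CPM, and 6.37 and 7.30 CPM (0.83 ± 0.27, SE, adjusted p = 0.0909). WDR81, the gene between MIR22HG and SERPINF2, was not among those that passed.

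MYO15A, whose myosin works in the stereocilia of hair cells, was at 1.22 and 1.02 CPM in parental HCT116, 3.642 and 3.41 CPM with CD44s-OE, then 2.917 and 3.404 CPM with CD44v6-OE. It rose by 1.66 ± 0.28 on the log2 scale with CD44s-OE (SE, adjusted p = 0.0113). KCNAB3, a potassium channel subunit, was at 1.29 and 0.645 CPM in parental and 2.48 and 4.80 CPM with CD44s-OE (1.91 ± 0.43, SE, adjusted p = 0.0305). The scavenger receptor gene SCARF1 was at 0.855 and 0.899 CPM in parental and 3.401 and 1.733 CPM with CD44s-OE (1.55 ± 0.40, SE, adjusted p = 0.0477). For these genes the CD44s-OE libraries did not overlap the parental ones. The KRT16P6 pseudogene was at 0.057 and 0.195 CPM in parental, levels at which the fitted fold depends on the prior count, 0.423 and 0.971 CPM with CD44s-OE, then 1.98 and 1.78 CPM with CD44v6-OE (2.45 ± 0.63, SE, adjusted p = 0.0466, for CD44s-OE minus parental). Without 1 library, the calls of KRT16P6, KCNAB3, MYO15A and SCARF1 were lost in at least 1 case, while those of MIR22HG, SERPINF1 and DNAH2 were not.

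DNAH2, for a heavy chain of axonemal dynein, was the gene past both thresholds that fell. It was at 2.99 and 2.62 CPM in parental HCT116, 0.604 and 0.648 CPM with CD44s-OE, then 2.14 and 2.38 CPM with CD44v6-OE. Against parental cells it changed by -2.16 ± 0.31 on the log2 scale (SE, adjusted p = 0.0058). Against CD44v6-OE it was the 1 gene of the arm that passed the adjusted p and the minimum fold (-1.85 ± 0.31, SE, adjusted p = 0.0447), where 0.813% and 0.288% of all genes passed. Leaving out any 1 of the parental or CD44v6-OE libraries ended that call, while 38 and 25 genes passed the adjusted p without CD44s-OE replicate 1 or 2.

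By number, the role lists with the most genes that fell in HCT116 CD44s-OE were those of RNA and mitochondria, but the lists differ in length. At an adjusted p under 0.1, 11.9% of the genes of the arm and 5.71% of all genes fell. In the RNA processing and translation list, 7 of 19 genes fell and 1 rose (median -0.27). PRPF8 was at 1003 and 1008 CPM in parental HCT116, 642.4 and 532.0 CPM with CD44s-OE, then 797.2 and 757.4 CPM with CD44v6-OE (-0.78 ± 0.13, SE, adjusted p = 0.0101). EIF5A, a translation factor modified by hypusine, was at 1757 and 1917 CPM, 1096 and 1175 CPM, and 1556 and 1526 CPM in these groups (-0.69 ± 0.12, SE, adjusted p = 0.011). Both genes were lowest in CD44s-OE with CD44v6-OE between the other groups. GEMIN4 of the SMN complex (-0.68), the RNA helicase DHX33 (-0.60), TSR1 (-0.56), the RNA methyltransferase METTL16 (-0.53) and ELAC2 (-0.47) fell as well. EIF4A1 rose (1.09 ± 0.32, SE, adjusted p = 0.0684), at only 1.49 to 4.82 CPM in HCT116. It overlaps an annotated readthrough gene, SENP3-EIF4A1, so its count is uncertain.

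In the mitochondria and metabolism list, 6 of 26 genes fell and 2 rose (median -0.11). C1QBP, a protein of the mitochondrial matrix, was at 678.7 and 677.5 CPM in parental HCT116, 378.4 and 358.7 CPM with CD44s-OE, then 542.3 and 522.1 CPM with CD44v6-OE (-0.88 ± 0.11, SE, adjusted p = 0.00418). ACADVL, the very long chain acyl-CoA dehydrogenase of fatty acid oxidation, went the other way with 286.4 and 232.2 CPM, 486.6 and 474.4 CPM, and 342.9 and 335.2 CPM (0.89 ± 0.13, SE, adjusted p = 0.0071). These groups did not overlap for either gene. CLUH, which binds messenger RNAs of mitochondrial proteins (-0.72), COX10 (-0.58), SCO1 (-0.54), SHMT1 (-0.54) and SLC25A11 (-0.41) fell, and the acetyltransferase gene SAT2 rose (0.49).

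Of the other lists, 4 of 20 cytoskeletal and traffic genes fell, KIF1C (-0.45), SPECC1 (-0.42), MYH10 (-0.39) and PFN1 (-0.38). In transcription and chromatin 3 of 23 fell, among them MYBBP1A (-0.50) and ZZEF1 (-0.44). RPA1 (-0.46) was among those that fell in DNA repair and replication (2 of 7), as was HASPIN, a histone H3 kinase of mitosis (-0.87, adjusted p = 0.0194), in mitosis and centrosome (1 of 10). PSMB6, a catalytic subunit of the proteasome (-0.42), and RNF167 (-0.43) fell in protein quality (2 of 10). Of 20 kinases and adaptors 0 passed, and of 23 inflammation, secreted and surface proteins 3 rose, SERPINF1, SERPINF2 and SCARF1. Outside the lists, SGSM2, which acts on RAB GTPases, rose from 75.2 and 59.4 CPM to 125.1 and 130.1 CPM (0.92 ± 0.15, SE, adjusted p = 0.00922). The lists were written with results of these data known, so their counts are no independent support for a direction.

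In HCT116 CD44v6-OE, few genes of the arm passed the test. With 1.53% of all genes past the adjusted p, 3 of 236 passed (1.27%), all higher, where 1.44% of all genes passed as higher, and with 0.779% of all genes past both thresholds, 2 did, KRT16P6 (3.88 ± 0.62, SE, adjusted p = 0.0276) and MIR22HG (1.58 ± 0.29, SE, adjusted p = 0.0446). MYO15A was just under the minimum fold (1.499 ± 0.28, SE, adjusted p = 0.0486). Leaving out any 1 of the parental or CD44v6-OE libraries ended all 3, and 18 genes passed the adjusted p without either CD44s-OE library. Both CD44v6-OE libraries were below both parental ones for 80 genes (33.9%), where 24.7% of all genes showed this.

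The fold changes of single genes with CD44s-OE were set side by side in both lines. Over 234 genes tested in both, Pearson's r of the fold changes in HCT116 and SW480 was 0.034, given as a description across genes that share libraries. Of all genes of the arm, 87.3% were below 0 and 14.8% passed the adjusted p in SW480, the comparison the arm was chosen on. Of the 28 genes that fell in HCT116, 27 were below 0 in SW480 and 8 were among the 35 lowest there by adjusted p (28.6% of the first and 22.9% of the second list): TSR1, RAP1GAP2, ZZEF1, MYBBP1A, RNF167, KIF1C, SCO1 and ELAC2. Of the 13 that rose in HCT116, 10 were below 0 in SW480, and MIR22HG, SERPINF2 and KRT16P6 were among those 35. MIR22HG was at 15.2 and 19.3 CPM in parental SW480, 9.87 and 7.90 CPM with CD44s-OE, then 10.0 and 12.3 CPM with CD44v6-OE, and SERPINF2 at 18.83 and 13.95 CPM, 6.88 and 7.98 CPM, and 16.9 and 20.5 CPM. The difference between the lines in CD44s-OE minus parental passed an adjusted p of 0.1 for 16 of 239 genes, 15 of them lower in SW480, where 3.92% of all genes passed. For CD44s-OE minus CD44v6-OE, 4 genes passed and all were lower in SW480, where 0.491% of all genes did, and both counts include the libraries that the arm was chosen on. For CD44v6-OE minus parental, 1 gene passed, MIR22HG (-2.18 ± 0.36, SE, adjusted p = 0.026, edgeR's quasi-likelihood test), where 0.409% of all genes passed. In that comparison 18 genes had an unadjusted p under 0.05. It includes the parental SW480 libraries, which the choice of the arm also used, so it is a description too.

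Before any transfection the lines already differed on the arm, as they did over all genes. The parental SW480 libraries are also 1 side of the comparison the arm was chosen on, and a high level in them would favour that choice. The values below are therefore a description and no independent baseline. Parental SW480 minus parental HCT116 had a median log2 fold change of 0.30, a 1.23-fold higher level in SW480, with 158 of 239 genes above 0, against 0.0066 over all genes and -0.40 on 17q. The arm ranked 27 of 41 from the lowest. At an adjusted p under 0.1, 152 genes passed (63.6%), 108 higher and 44 lower in SW480, where 60.9% of all genes passed. Past both thresholds were 45 (18.8%), 32 higher and 13 lower, where 29.0% of all genes passed. Both shares are over 19567 tested genes, also those below 1 CPM. The windows were uneven: the median was 1.04 over 11 genes at 14 to 16 Mb and 0.72 over 24 genes at 16 to 18 Mb, but -0.0065 over 25 genes at 18 to 20 Mb and -0.34 over 5 genes at 10 to 12 Mb.

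Genes chosen here after their values were seen show how far single genes were apart between the lines. NCOR1, in the window with the highest median, was 2.61 ± 0.17 higher in SW480 on the log2 scale (SE, adjusted p = 2.7e-08), with 32.6 and 26.2 CPM in parental HCT116 against 173.0 and 188.9 CPM in parental SW480, each scaled within its line. The cation channel gene TRPV2 was at 1.18 and 1.82 CPM against 221.7 and 108.4 CPM (6.77 ± 0.35, SE, adjusted p = 7.0e-09), and SERPINF1 differed by 6.90 ± 0.39 (SE, adjusted p = 9.1e-09). YBX2 was at 2.49 and 1.72 CPM in HCT116 and 80.6 and 95.7 CPM in SW480. In the other direction, DOC2B, for a calcium sensor of exocytosis, was at 15.7 and 16.4 CPM against 0.356 and 0.364 CPM (-5.48 ± 0.46, SE, adjusted p = 2.9e-07), and ATP2A3, for a calcium pump, was lower by a log2 difference of -1.93 ± 0.25 (SE, adjusted p = 1.8e-05). In SW480, DOC2B had group means of 0.36 (parental), 0.87 (CD44s-OE) and 1.58 CPM (CD44v6-OE). It met the minimum of 1 CPM over the 12 libraries through its level in HCT116, so its difference between the lines is a description.

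Genes that the filter on low counts removed within a line complete the arm. HS3ST3A1, WSCD1 and ZFP3 were not tested in HCT116, where they were at 0.192 CPM or less, and were at 3.87 to 10.6, 1.46 to 3.27 and 1.07 to 3.42 CPM in SW480. PIK3R5 and ALOX12P2 were not tested in SW480, where they were at 0.329 and 0.11 CPM or less, and were at 1.29 to 2.80 and 4.52 to 6.73 CPM in HCT116. Of the 239 genes, 59 overlap another gene with counts on the same strand, and TRIM16, TVP23B, TVP23C, UBE2SP1, UBE2SP2, FOXO3B, PAIP1P2 and KRT16P6 have near-identical copies, so their counts are uncertain where reads fit more than 1 gene.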

How the data were processed

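RNA was sequenced from 12 cultures of HCT116 and SW480, 2 per group and line. Per the study's methods and the labels, the authors aligned reads to hg19 with STAR 2.7.9a and made the deposited count table with featureCounts of Subread 2.0.3 over GENCODE exons, by reverse strand and counting each read of a pair. A deposited table of log2-scale variance-stabilized values, which the authors made with DESeq2 1.30.1, served only as an alternative.

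Counts were fitted here within each line (6 libraries) by edgeR 4.0.16's quasi-likelihood test in R 4.3.3, with TMM scaling, filterByExpr and robust estimation, and p-values were adjusted by Benjamini-Hochberg over all tested genes. A fit of all 12 libraries gave differences between lines. Genes are called where the log2 fold change exceeded 1.5 in size at an adjusted p below 0.1, and counts past the adjusted p alone are given beside it. CPM of tested genes by library are TMM-scaled within a line, while the CPM of the selection rule, CD44, markers, untested genes and the limit at 0 are counts over the column total, and SE is that of the log2 fold change. A count of 0 allows up to 6 counts (3 read pairs), 0.114 to 0.139 CPM by library, for counting error only. The scripts were tested on simulated data.

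The genes and role lists were chosen with earlier results of these data known. Genes are named if called or past the adjusted p in a within-line comparison (up to 6 per direction), if first in a role list, or if among 27 landmarks along the arm, and genes of the parental comparison after their values were seen. Lists cover 158 of the genes. Alternatives were DESeq2 1.42.0, RLE scaling, other filters, scaling without chromosome 17, halved counts, only the groups compared, the replicate number as a block, other thresholds and windows, and leaving out each library.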

Additional observations from a re-analysis of the deposited data

Results flagged for a closer look

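The change with CD44s-OE against parental cells differed between the lines, by the test of that difference across the 12 libraries, for 16 genes of the arm. As the arm was chosen on the SW480 CD44s-OE libraries, the differences (SW480 minus HCT116, log2, SE) are given as a description. The KRT16P6 pseudogene was at -4.27 ± 0.80, followed by SERPINF1 at -3.74 ± 0.47, MIR22HG at -3.28 ± 0.36, HES7 at -3.195 ± 0.87, SPNS3 at -2.12 ± 0.49, SERPINF2 at -1.95 ± 0.36 and the lipoxygenase gene ALOX12B at -1.75 ± 0.45. Smaller differences were those of ACADVL (-1.45 ± 0.21), LRRC75A (-1.44 ± 0.41), TRIM16 (-1.19 ± 0.27), KIAA0753 (-0.95 ± 0.26), NDEL1 (-0.95 ± 0.20), NCOR1 (-0.90 ± 0.23), SGSM2 (-0.88 ± 0.21) and TNK1 (-0.73 ± 0.21). DNAH2 was the gene with a difference above 0, at 2.24 ± 0.61, since it fell in HCT116.

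With CD44v6-OE against parental cells, MIR22HG differed between the lines by -2.18 ± 0.36 (SE, adjusted p = 0.026 in edgeR's quasi-likelihood test). It was higher than parental in both HCT116 libraries and lower than parental in both of SW480. The choice of the arm also used the parental SW480 libraries, so this value is a description. Between CD44s-OE and CD44v6-OE, the lines differed in SERPINF2 (-1.93 ± 0.36), SERPINF1 (-2.15 ± 0.42), ACADVL (-1.09 ± 0.21) and CHRNB1, a subunit of the muscle acetylcholine receptor (-1.02 ± 0.22), again as a description.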

How the results depend on the processing

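The arm median kept its sign in every alternative of all 6 within-line comparisons, except with the mean in place of the median in HCT116 (0.021 for CD44s-OE and 0.033 for CD44v6-OE minus parental). Among genes at 10 CPM or more it was -0.14 and -0.098 in these comparisons. Leaving out 1 library gave -0.15 to -0.065 (HCT116 CD44s-OE minus parental), -0.061 to -0.040 (CD44v6-OE minus parental), -0.11 to -0.019 (CD44s-OE minus CD44v6-OE), -0.48 to -0.35, -0.19 to -0.033 and -0.36 to -0.23 (the same in SW480). With windows of 4 Mb the highest medians in HCT116 were 0.0011, -0.020 and 0.0089, and the lowest for CD44s-OE minus CD44v6-OE was -0.080.

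Counts moved more. In the order of those 6 comparisons, leaving out 1 library gave 3 to 9, 0 to 3, 0 to 3, 0 to 2, 0 to 4 and 0 to 4 calls, and 5 to 81, 0 to 18, 0 to 38, 0 to 101, 0 to 11 and 0 to 43 genes past the adjusted p alone. With only the groups compared, 16, 17, 0, 12, 0 and 40 genes passed the adjusted p, and calls were 4 (HCT116 CD44v6-OE minus parental), 0 (HCT116 CD44s-OE minus CD44v6-OE) and 1 (SW480 CD44s-OE minus parental). DESeq2 passed 5, 9, 69, 3 and 26 genes in all comparisons but the first, with 2 calls in HCT116 CD44s-OE minus CD44v6-OE and 1 in SW480 CD44v6-OE minus parental, and 34, 4 and 10 genes differed between lines. Without a filter on low counts 6, 11, 60, 5 and 32 passed, with 3 and 1 calls where DESeq2 had 2 and 1. A minimum log2 fold of 1 gave 11 calls in HCT116 CD44s-OE minus parental and 8, 1 and 10 in SW480, and an adjusted p under 0.05 gave 1 call in SW480 CD44s-OE minus parental. In HCT116 CD44s-OE minus CD44v6-OE, halved counts and a mean count of at least 50 each passed 2 genes, and in SW480 CD44v6-OE minus parental, that count minimum and non-robust estimation each passed 0.

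The replicate numbers share only a name, since differences between replicates correlated between groups by -0.085 to 0.12. With them as a block, 4 genes were called in HCT116 CD44v6-OE minus parental and 2 in HCT116 CD44s-OE minus CD44v6-OE, where 2 passed the adjusted p, and 23 and 0 passed in SW480 CD44s-OE and CD44v6-OE minus parental. Of 2980 alternative values of named genes 260 lost and 94 gained the threshold, and 0 changed sign. The cause of these moves was not tested. With 2 libraries a group, single calls are limited by the spread between libraries.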
